A study of Mus musculus with 18 samples.

Results

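The quinone, epoxide and alkenal detoxification genes are 9 genes for enzymes that disarm reactive compounds, 1 of which (*Por*) also supplies electrons to others. They were chosen by name from the 47729 genes of the count table: *Nqo1*, *Nqo2*, *Cryz*, *Ptgr1*, *Ptgr2*, *Ephx1*, *Ephx2*, *Ces1d* and *Por*. All 9 were found in the table and all 9 passed the filter on low counts, as did 18958 genes in all. RNA of the retinal pigment epithelium (RPE), the pigmented layer beneath the photoreceptors, was sequenced from 9 mice at P40, all *rd1* by their labels. The study's methods state fewer *rd1* pairs at this age than the labels hold, and which mice those were is not given. The *rd1* line (FVB/N background) carries a mutation of *Pde6b*, so that the rods of both eyes degenerate, and no mouse labelled wild-type entered the comparisons given here. In each mouse, 1 eye had been given an adeno-associated virus (AAV) with human *Nrf2* cDNA under the Best1 promoter, which drives expression in the RPE, along with AAV-Best1-GFP (Best1-Nrf2 eyes). The fellow eye had AAV-Best1-GFP alone (control eyes), so that the groups differed in the added vector as well as in its cargo. The RNA was collected from the cleaned eyecup without the retina, and poly(A) RNA was amplified by a low-input kit.

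Quinones, epoxides and alkenals are reactive products of metabolism and of lipid peroxidation. Some quinone reductases, NQO1 among them, add a pair of electrons at once and so bypass the semiquinone radical, whereas others pass single electrons. Alkenal reductases saturate the carbon-carbon double bond that makes an alkenal reactive, and epoxide hydrolases open the epoxide ring with water. NRF2 is a transcription factor that binds antioxidant response elements, and *Nqo1* is among its best known targets. The RPE takes up the shed tips of photoreceptors and works under strong light and high oxygen, and it is therefore exposed to such lipid products.

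Before the levels, the promoters of both pairs of relatives are shown, because 1 gene of each pair was higher in Best1-Nrf2 eyes and the other was not called. Each is the 250 bases before the RefSeq start site, read 5′ to 3′ on the strand of the gene, on GRCm38.p6. Capitals mark the GC box GGGCGG on either strand.

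*Nqo1*, chr8:107403206-107403455, minus strand: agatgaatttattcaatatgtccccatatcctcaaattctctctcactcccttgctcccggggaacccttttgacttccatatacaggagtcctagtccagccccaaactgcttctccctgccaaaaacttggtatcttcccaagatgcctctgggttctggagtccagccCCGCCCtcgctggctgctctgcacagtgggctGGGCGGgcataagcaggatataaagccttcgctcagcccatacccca
*Nqo2*, chr13:33964409-33964658, plus strand: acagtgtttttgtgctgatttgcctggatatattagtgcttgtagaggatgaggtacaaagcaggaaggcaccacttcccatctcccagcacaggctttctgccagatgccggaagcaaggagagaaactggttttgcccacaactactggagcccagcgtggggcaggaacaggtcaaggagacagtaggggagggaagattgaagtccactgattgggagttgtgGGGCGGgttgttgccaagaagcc
*Ptgr1*, chr4:58987079-58987328, minus strand: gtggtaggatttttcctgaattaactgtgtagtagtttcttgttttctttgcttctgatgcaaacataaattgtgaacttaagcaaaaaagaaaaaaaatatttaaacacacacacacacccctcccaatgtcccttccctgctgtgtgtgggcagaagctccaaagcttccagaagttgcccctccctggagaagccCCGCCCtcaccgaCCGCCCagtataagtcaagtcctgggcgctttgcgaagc
*Ptgr2*, chr12:84285046-84285295, plus strand: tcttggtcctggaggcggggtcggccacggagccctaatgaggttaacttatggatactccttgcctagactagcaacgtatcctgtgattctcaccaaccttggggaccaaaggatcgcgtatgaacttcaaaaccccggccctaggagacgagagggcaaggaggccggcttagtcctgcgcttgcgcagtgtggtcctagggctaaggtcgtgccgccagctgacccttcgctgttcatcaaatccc

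The search covered 300 bases, from 250 before to 50 after each start, on both strands. RefSeq windows were at hand for 7 of the 9 genes (9 windows in all), but not for *Ephx2* or *Ces1d*. None of the 9 windows held the core of the antioxidant response element, searched as TGACNNNGC, which was present in 12.4% of 32851 promoter windows of the same length. None held the core of the xenobiotic response element either, searched as TNGCGTG (5.065% of windows). The GC box was found in 5 of the 9 windows, those of *Nqo1*, *Ptgr1*, *Ephx1* and *Por* and the window of *Nqo2* printed above but not its other one, against 35.7% of all windows. These matches are descriptions of letters, and a missing match says only that those letters are not in this window.

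The level of *Nfe2l2*, the gene that encodes NRF2, was used to check the labels. Reads of the vector's human cDNA and of the mouse gene cannot be told apart in the table. Control eyes ranged from 76.7 to 134 CPM (counts relative to library size after TMM scaling, median 83.0) and Best1-Nrf2 eyes from 275 to 704 CPM (median 457). The groups did not overlap, and the log2 fold change was 2.29 (SE 0.21, adjusted p = 6.21e-05).

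Library totals were 18956748 to 44054836 counts in control eyes and 32839893 to 49598700 in Best1-Nrf2 eyes. The lowest total was that of the control eye of mouse 8. *Ttr*, *Rgr* and *Dct*, the 3 RPE markers most abundant in these libraries, were at 715 CPM or more in every library. They were picked by their level, so that level does not test the RPE label. *Rgr* was lower in the Best1-Nrf2 eye of all 9 mice (log2 fold change -1.38, edgeR, adjusted p = 0.0158). Markers of other cells were present too and moved with the group. Of the markers tested, 10 of 11 for cones and 4 of 10 for rods were lower in Best1-Nrf2 eyes, 1 for rods was higher, 13 of 20 for macrophages and microglia were higher, and 6 of 18 for RPE were lower. The summed level ranged from 330 to 2350 CPM in control and from 63.0 to 558 CPM in Best1-Nrf2 eyes for cones, from 172 to 951 and from 268 to 598 CPM for rods, from 276 to 618 and from 367 to 1143 CPM for macrophages, and from 13697 to 70682 (median 42356) and from 17043 to 80070 CPM (median 21303) for RPE. The mean log2 level of RPE markers was lower with Best1-Nrf2 in 8 of 9 mice, and that of fibroblast and sclera markers was higher in all 9 (by 0.62 ± 0.52, SD), with 1 of 9 such genes called higher. No marker was at 0 in every library. In these eyecup libraries, fewer cells of a type and less RNA per cell cannot be told apart, and neither can these marker shifts and the vector as sources of a difference between the groups.

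Of the 9 detoxification genes, 4 were higher in Best1-Nrf2 eyes (*Ptgr1*, *Nqo1*, *Ephx1* and *Ephx2*) and 0 were lower, by edgeR's quasi-likelihood test with mouse as a block and p-values adjusted over all genes tested. Across the 18958 genes, 3.12% were called higher and 1.13% lower (4.25% in all). The 9 genes had been chosen with earlier results of these data known, so these shares are given only as a description. The other 5 had unadjusted p-values above 0.05 in that test, and none of them was called by DESeq2 or by voom. The median log2 fold change was 0.17 over the 9 genes and -0.025 over all genes tested. Without mice 6 and 8, whose libraries stood apart on marker levels, the same 4 were called, a choice made after seeing the data. With the mean level of rod and cone markers added as a covariate, or that of macrophage markers, 0 of the 9 were called by edgeR (3 had an unadjusted p under 0.05 and a positive change with each covariate, and 1 had such a p and a negative change with the rod and cone covariate), and *Nfe2l2* was not called either. These covariates left 10 and 22 genes called in all. The SE of *Nqo1* went from 0.20 to 0.46 and 0.49, and its log2 fold change from 2.02 to 2.33 and 2.16. Without a covariate, the log2 fold changes of *Ptgr1*, *Ephx1* and *Ephx2* were 3.99, 1.44 and 0.82. All of these were lower with the rod and cone covariate, at 2.57, 1.15 and 0.15. With the macrophage covariate they were 5.03, 1.5 and 0.66.

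**Figure D1:**
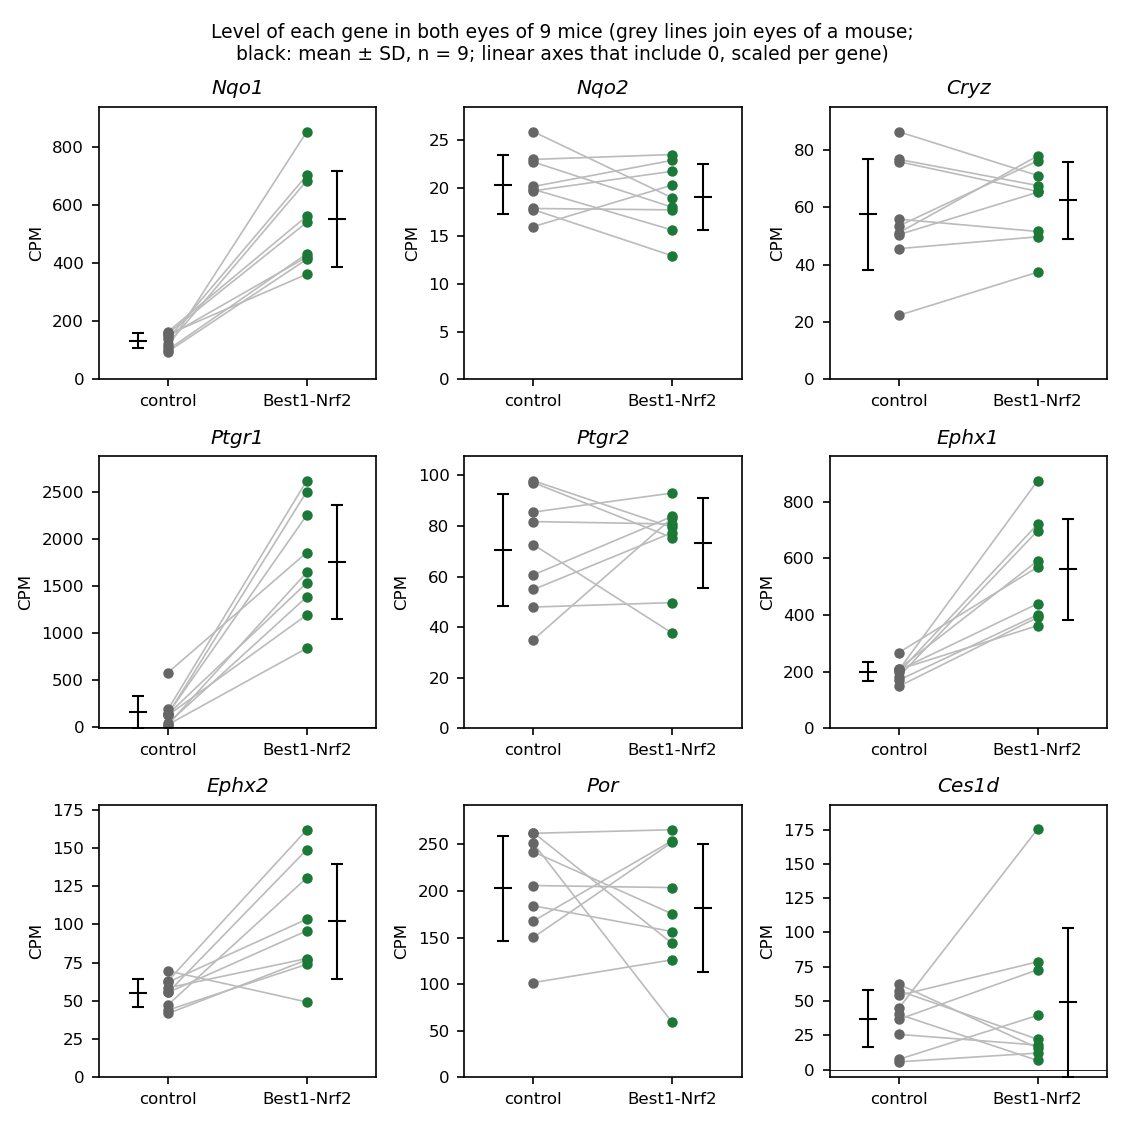
Level of each detoxification gene in each of the 18 eyes (CPM, linear vertical axes that include 0), with control eyes on the left, Best1-Nrf2 eyes on the right, grey lines joining the eyes of a mouse and black bars for the mean ± SD (n = 9). For *Nqo1*, *Ptgr1* and *Ephx1*, every Best1-Nrf2 eye is above every control eye, while *Nqo2*, *Ptgr2*, *Cryz*, *Por* and *Ces1d* hold lines in both directions.

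The first group reduces quinones. *Nqo1* (ENSMUSG00000003849; chr8:107388225-107403206 on GRCm38, minus strand, 6 merged exon blocks) encodes NAD(P)H quinone dehydrogenase, a flavoenzyme of the cytosol. Control eyes ranged from 95.7 to 164 CPM (median 139) and Best1-Nrf2 eyes from 362 to 851 CPM (median 539.9). The lowest Best1-Nrf2 eye was above the highest control eye, a separation seen in 1.05% of all genes tested in this direction and in 0.116% in the other. The mean rose from 133 ± 25.7 to 552 ± 164 CPM (SD, n = 9 each), which gave a log2 fold change of 2.02 (SE 0.20, 95% CI 1.60 to 2.45, adjusted p = 9.58e-05), or 4.06-fold. The difference within a mouse ran from 1.22 to 2.92 on the log2 scale, and all 9 mice had more in the Best1-Nrf2 eye.

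*Nqo2* (ENSMUSG00000046949; chr13:33964687-33988443, plus strand) encodes a relative of NQO1 that uses dihydronicotinamide riboside as its electron donor. The 9 control eyes spanned 15.96 to 25.9 CPM (median 19.8) and Best1-Nrf2 eyes 12.9 to 23.5 CPM (median 18.96). These ranges overlapped. The log2 fold change was -0.10 (SE 0.15, 95% CI -0.42 to 0.22, adjusted p = 0.883), with 4 of 9 mice higher, so that the interval leaves out a rise as large as that of *Nqo1*. A part of its sequence is uncertain: 18.6% of its 31-base words occur also in another gene, chiefly *Serpinb6a*, which lies on the opposite strand with 762 bases of shared exon and rose (log2 fold change 0.85, adjusted p = 0.0191).

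*Cryz* (ENSMUSG00000028199; chr3:154596711-154623182, plus strand) encodes zeta-crystallin, which reduces quinones by single electrons with NADPH. In control eyes the level ran from 22.3 to 86.3 CPM (median 53.5) and in Best1-Nrf2 eyes from 37.4 to 77.9 CPM (median 65.5). The Best1-Nrf2 eyes lay within the range of the control eyes, whose low end was the eye of mouse 8 (next control eye, 45.6 CPM). The log2 fold change was 0.17 (SE 0.15, 95% CI -0.16 to 0.51, adjusted p = 0.754), and 5 of 9 mice had more in the Best1-Nrf2 eye.

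The second group reduces alkenals. *Ptgr1* (ENSMUSG00000028378; chr4:58965439-58987119, minus strand) encodes prostaglandin reductase 1, which also acts on leukotriene B4 and on 4-hydroxynonenal, an alkenal formed from peroxidised lipid. Its level in control eyes was 29.5 to 582 CPM (median 139.8) and in Best1-Nrf2 eyes it ran from 839.6 to 2615 CPM (median 1643). The groups did not overlap, although the highest control eye, that of mouse 8, was far above the next at 191 CPM. The mean rose from 159 ± 169 to 1757 ± 602 CPM (SD, n = 9 each), and the log2 fold change of 3.99 (SE 0.40, 95% CI 3.12 to 4.87, adjusted p = 0.00012) was the largest of the 9 genes, or 15.9-fold. Within a mouse the difference ran from 1.67 in mouse 8 to 5.78 in mouse 3, and all 9 mice were higher. Without mouse 8 the log2 fold change was 4.26.

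*Ptgr2* (ENSMUSG00000072946; chr12:84285232-84315832, plus strand) encodes prostaglandin reductase 2, which reduces 15-keto prostaglandins. In control eyes the level ran from 35.1 to 97.9 CPM (median 72.6) and in Best1-Nrf2 eyes from 37.7 to 93.1 CPM (median 79.5). The Best1-Nrf2 eyes lay wholly inside the control range, whose low end was the eye of mouse 8 (next control eye, 48.0 CPM). The log2 fold change was 0.08 (SE 0.20, 95% CI -0.36 to 0.52, adjusted p = 0.941), and 5 of 9 mice were higher. Of its 31-base words, 31.7% are shared, chiefly with an antisense transcript, *Gm47484*, that overlaps its exons by 1896 bases and was not analysed here.

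The third group opens epoxides. *Ephx1* (ENSMUSG00000038776; chr1:180976210-181020904, minus strand) encodes the microsomal epoxide hydrolase, which acts mainly on foreign epoxides. The 9 control eyes spanned 149 to 268 CPM (median 206) and Best1-Nrf2 eyes 363 to 874 CPM (median 569). The groups did not overlap. The mean rose from 199.8 ± 32.8 to 561 ± 177 CPM, with a log2 fold change of 1.44 (SE 0.18, 95% CI 1.06 to 1.83, adjusted p = 0.000457). All 9 mice were higher, by 0.80 in mouse 6 to 2.08 on the log2 scale.

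*Ephx2* (ENSMUSG00000022040; chr14:66084374-66124500, minus strand) encodes the soluble epoxide hydrolase, which hydrolyses epoxides of fatty acids. Its level in control eyes was 41.8 to 69.6 CPM (median 55.6) and in Best1-Nrf2 eyes it ran from 49.3 to 162 CPM (median 95.8). The groups overlapped at the low end of the Best1-Nrf2 eyes, and mouse 6 had less in its Best1-Nrf2 eye, by 0.50 on the log2 scale, unlike the other 8. The mean rose from 55.3 ± 9.33 to 102 ± 37.8 CPM, with a log2 fold change of 0.82 (SE 0.20, 95% CI 0.38 to 1.26, adjusted p = 0.0421). This call was lost on leaving out any of mice 1 to 5 or 7 to 9 (adjusted p from 0.0526 to 0.128), whereas without mouse 6 the log2 fold change was 0.97 (adjusted p = 0.00341). The call was also lost with no filter on low counts (0.84, adjusted p = 0.0554) and with each marker covariate, where the log2 fold change was 0.99 for RPE (adjusted p = 0.166), 0.15 for rods and cones (adjusted p = 0.900) and 0.66 for macrophages (adjusted p = 1.0).

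The last genes supply electrons and cleave esters. *Por* (ENSMUSG00000005514; chr5:135670033-135735326, plus strand) encodes NADPH-cytochrome P450 reductase, which feeds the P450 enzymes, heme oxygenase and squalene epoxidase and can itself reduce quinones by single electrons. The 9 control eyes spanned 102 to 262 CPM (median 206) and Best1-Nrf2 eyes 59.0 to 266 CPM (median 175). The lowest of these was mouse 6, and the groups otherwise covered much the same range. The log2 fold change was -0.20 (SE 0.27, 95% CI -0.78 to 0.38, adjusted p = 0.863), with 4 of 9 mice higher, and it was 0.01 without mouse 6. With the rod and cone covariate it was -1.295 (SE 0.58, adjusted p = 0.286), and with the macrophage covariate -0.90 (SE 0.62, adjusted p = 1.0).

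*Ces1d* (ENSMUSG00000056973; chr8:93166068-93197838, minus strand) encodes a carboxylesterase of the endoplasmic reticulum that cleaves esters of lipids and drugs. Control eyes ranged from 5.66 to 62.2 CPM (median 40.3) and Best1-Nrf2 eyes from 6.64 to 175 CPM (median 22.1). Its levels were scattered in both groups, with a coefficient of variation of 55.5% in control and 111% in Best1-Nrf2 eyes. Within a mouse the difference ran from -2.59 to 2.39 on the log2 scale. The log2 fold change was 0.09 (SE 0.54), with a 95% CI of -1.09 to 1.27 (adjusted p = 0.979), so that a difference was not detectable at this spread.

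**Figure D2:**
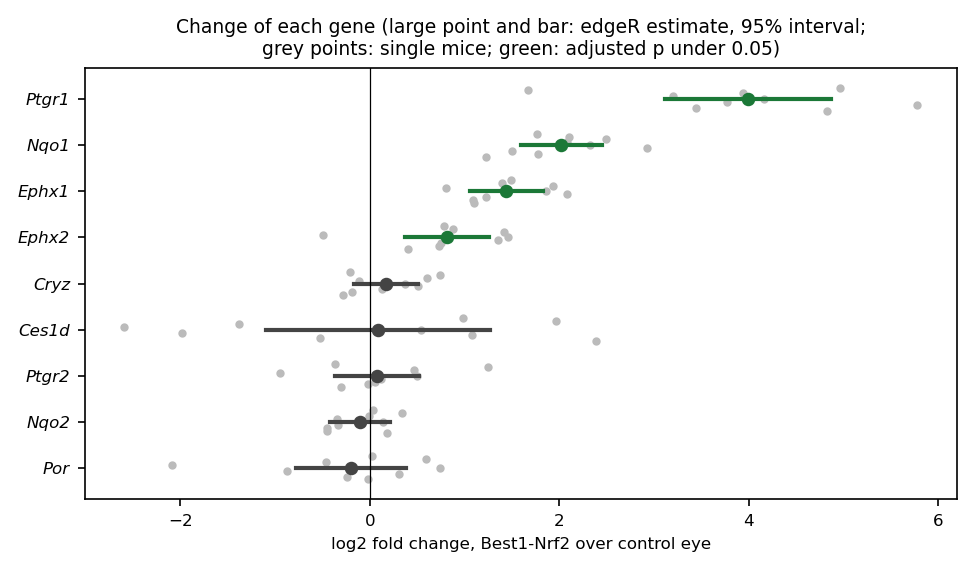
Log2 fold change of each detoxification gene, Best1-Nrf2 minus control, with the 95% CI as a bar and the 9 mice as single points. The intervals of *Ptgr1*, *Nqo1*, *Ephx1* and *Ephx2* are above 0, and *Ces1d* has the widest one, from -1.09 to 1.27.

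Relatives within a family were set against each other mouse by mouse, a comparison added after the values were seen. The log2 response of *Nqo1* exceeded that of *Nqo2* by 2.12 ± 0.61 (SD, range 1.04 to 3.26), and that of *Ptgr1* exceeded that of *Ptgr2* by 3.89 ± 1.56 (range 0.43 to 5.73). For the epoxide hydrolases the gap was smaller, at 0.63 ± 0.28 (range 0.36 to 1.30) between *Ephx1* and *Ephx2*. All 9 mice had a positive difference in each pair, and each exact two-sided sign-flip test gave p = 0.0039, the smallest that 9 mice allow (adjusted p = 0.0039 over the 3 pairs). With any 1 mouse left out, the means ran from 1.98 to 2.26, from 3.66 to 4.33 and from 0.55 to 0.67, respectively.

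Levels of different genes were compared per kilobase of merged exon (CPM per kb), which understates genes with many rarely used exons. In control eyes, the mean level per kb was highest for *Ephx1* (102 ± 16.8), followed by *Nqo1* (85.6 ± 16.6), *Ptgr1* (69.3 ± 73.6) and *Por* (50.5 ± 14.03). *Ephx2*, *Ces1d*, *Ptgr2*, *Cryz* and *Nqo2* followed at 22.3, 15.7, 11.9, 9.28 and 5.02 CPM per kb. Each neighbour in that order overlapped the next in range, and without the control eye of mouse 8 *Ptgr1* (46.3 ± 27.2) came after *Por* (51.6 ± 14.6). In Best1-Nrf2 eyes, *Ptgr1* stood first at 765 ± 262 CPM per kb, followed by *Nqo1* at 355 ± 106 and *Ephx1* at 288 ± 90.9, whose ranges overlapped from each to the next. The lowest *Ephx1* value, 186 CPM per kb, was above the highest *Por* value, 66.1 CPM per kb. *Nqo2* remained last at 4.72 ± 0.855 CPM per kb and, in these eyes, did not overlap *Cryz*. In control eyes the ranges of these genes overlapped only through the control eye of mouse 8, where *Cryz* was at 3.61 CPM per kb.

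The level of *Nfe2l2* varied among the Best1-Nrf2 eyes, and each detoxification gene was compared with it over these 9 eyes. The 9 genes gave 18 correlations (Pearson's r and Spearman's rho), over which p-values from exact permutation tests were adjusted. The same correlations were not computed for all genes tested, so how usual such values are among genes is not known. *Ephx1* followed the *Nfe2l2* level closely (r = 0.93, permutation p = 0.000402, adjusted 0.00241; rho = 0.95, p = 0.000353, adjusted 0.00241), and so did *Ephx2* (r = 0.93, permutation p = 0.000601, adjusted 0.0027; rho = 0.95, p = 0.000353, adjusted 0.00241). For *Nqo1*, r was 0.92 (permutation p = 0.000926, adjusted 0.00333) and rho 0.87 (p = 0.00451, adjusted 0.0135). These relations held when both eyes farthest from the median *Nfe2l2* level, those of mice 6 and 8, were left out, with r of 0.88, 0.91 and 0.96 for *Ephx1*, *Ephx2* and *Nqo1*. Without mouse 2, 4 or 9, the rho of *Nqo1* missed the threshold (permutation tests, adjusted p = 0.0653, 0.0653 and 0.0596), while its r passed.

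The relation of *Ptgr1* to *Nfe2l2* missed the threshold over all 9 eyes (r = 0.75, permutation p = 0.0200, adjusted 0.0515; rho = 0.73, p = 0.0311, adjusted 0.0700), and again on leaving out any 1 of mice 1 to 7 or 9. By r alone it passed with upper-quartile scaling (r = 0.78, permutation test, adjusted p = 0.0326, with 0.0574 for rho) and without the eyes of mice 6 and 8 (r = 0.95, permutation test, adjusted p = 0.0129, with 0.0536 for rho). Without mouse 8 it passed by both (r = 0.90 and rho = 0.88, permutation tests, adjusted p = 0.00796 and 0.0163). *Cryz* had an r of 0.68 over 9 eyes (permutation p = 0.0396, adjusted 0.0779; rho = 0.70, p = 0.0433, adjusted 0.0779) and of 0.38 without those eyes, whereas without mouse 1 it was 0.86 (permutation test, adjusted p = 0.0124). For *Ptgr2*, *Por*, *Ces1d* and *Nqo2*, r was 0.53, 0.25, -0.095 and -0.0011, and rho was 0.62, 0.05, 0.033 and 0.017 (permutation tests, adjusted p of 0.140 or more). For *Ptgr2*, r was 0.23 without mouse 6, and without mouse 8 r was 0.70 and rho 0.81, the latter past the threshold (permutation test, adjusted p = 0.0436). In the same eyes, the mean log2 level of rod markers ran against *Nfe2l2* (r = -0.80, permutation test, adjusted p = 0.0574 over 8 marker lists, rho = -0.82, adjusted p = 0.0574), as did that of cone markers (r = -0.77, permutation test, adjusted p = 0.0574, rho = -0.65, adjusted p = 0.266), neither past the threshold, while that of RPE markers gave r = 0.41. The part of these markers in the relations of *Nqo1*, *Ephx1* and *Ephx2* was not tested.

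**Figure D3:**
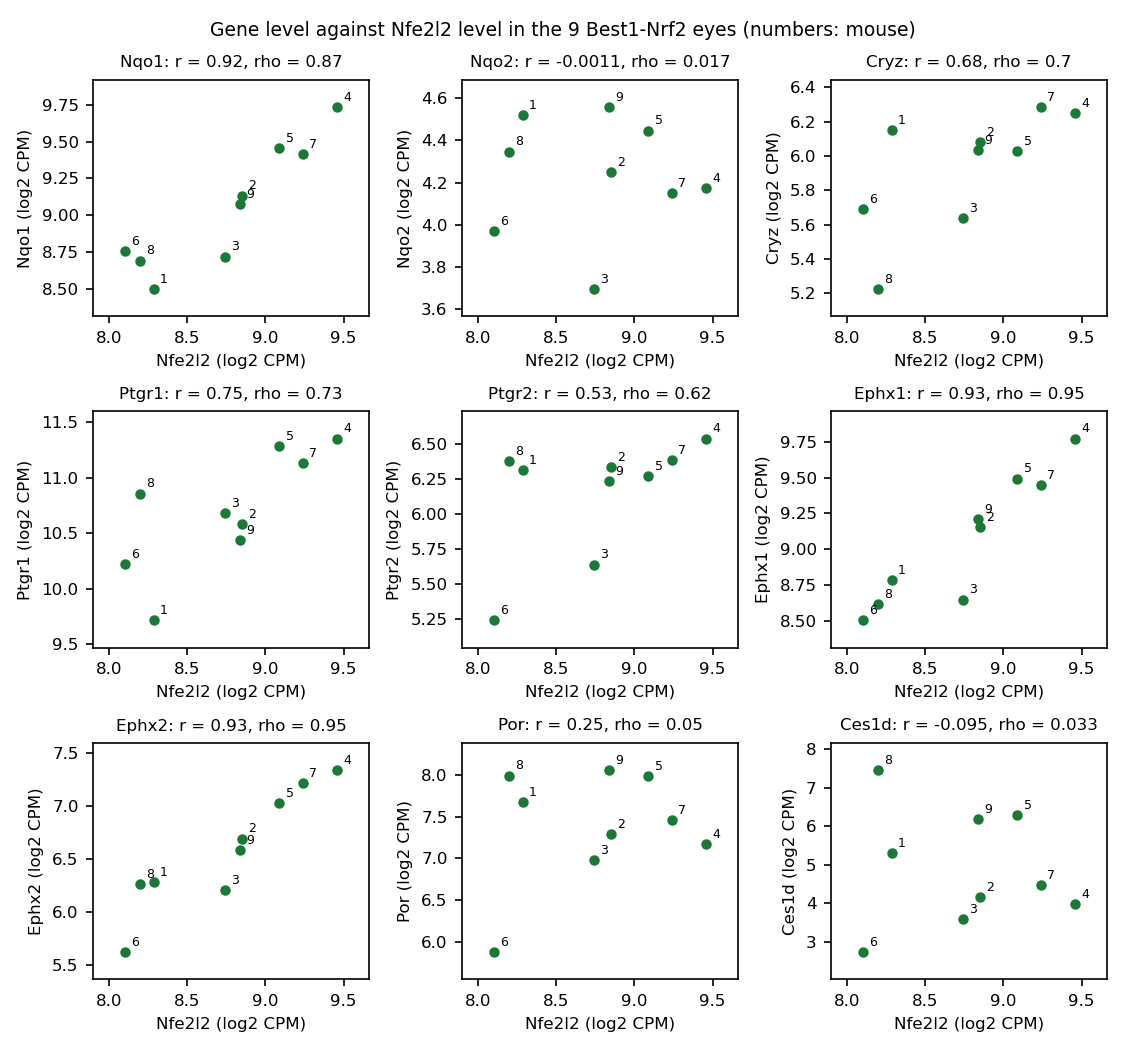
Level of each detoxification gene (log2 CPM, vertical axes) against the *Nfe2l2* level (log2 CPM, horizontal axes) in the 9 Best1-Nrf2 eyes, each point numbered by mouse. *Nqo1*, *Ephx1* and *Ephx2* rise with *Nfe2l2* among the Best1-Nrf2 eyes (r of 0.92, 0.93 and 0.93), whereas r was -0.0011 for *Nqo2*.

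Other enzymes of the same chemistry were taken from 6 lists, of which 87 genes were found in the table and 77 passed the filter. As the lists had been chosen with earlier results of these data known, their counts are given only as a description. Of the 77 genes, 12 were higher in Best1-Nrf2 eyes and 0 lower by edgeR, set against 3.12% and 1.13% of all genes. At an unadjusted p under 0.05, 1 was lower, and DESeq2 and voom each called 1 lower, *Rdh11* (log2 fold change -0.61 in edgeR, adjusted p = 0.0973), a retinol dehydrogenase. The median log2 fold change of the 77 was 0.10, near 0, and it ran from 0.043 (without mouse 8) to 0.18 (without mouse 6) with a mouse left out. It was -0.10 with the rod and cone covariate and -0.093 with the macrophage covariate. With either of these covariates, 1 of the 77 was called higher, *Cbr3*, and the log2 fold changes of the other 11 stayed positive, from 0.38 to 3.66 and from 0.21 to 4.56. Their SEs were 2.26 and 2.44 times as large at the median, and 3 and 7 of the 11 had a fold change at least as large as without the covariate. With the RPE covariate 9 were higher, and with a mouse left out 10 to 12.

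Beside *Nqo1*, 4 of 11 reductases of quinones and of coenzyme Q rose. *Cbr3*, a carbonyl reductase that takes quinones, went from 13.4 to 151 mean CPM (log2 fold change 3.50, adjusted p = 2.34e-06), and its neighbour and relative *Cbr1* from 93.2 to 216 CPM (1.22, adjusted p = 0.00398). *Sqor*, which passes electrons from sulfide to coenzyme Q in mitochondria, went from 21.5 to 90.8 CPM (1.99, adjusted p = 0.000241). *Cyb5r3*, the NADH-cytochrome b5 reductase, was higher in 8 of 9 mice (1.03, adjusted p = 0.0189), a call lost without mouse 4 or mouse 7. The call was also lost with RPE markers as a covariate, where the log2 fold change was 1.15 (SE 0.33, against 0.22 without it). Of 9 medium-chain reductases related to *Cryz* and the *Ptgr* genes, 0 were called by edgeR, DESeq2 or voom and 0 had an unadjusted p under 0.05 in edgeR, a share that says little beside the 4.25% of all genes called.

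Beside the *Ptgr* genes, 3 of 15 enzymes that oxidise, reduce or conjugate alkenals rose. *Gsta4*, the glutathione transferase that prefers 4-hydroxynonenal, was already abundant in control eyes and went from 1995 to 4635 mean CPM (log2 fold change 1.37, adjusted p = 0.00319). The aldehyde dehydrogenases *Aldh7a1* (41.8 to 94.1 CPM; 1.15, adjusted p = 0.00212) and *Aldh3b1* (2.20 to 8.93 CPM; 1.86, adjusted p = 0.0108) rose as well. With the RPE covariate, *Gsta4* and *Aldh3b1* were not called, and without the block *Gsta4* was not. Their log2 fold changes with the RPE covariate were 1.21 and 1.30 (SE 0.30 and 0.51, against 0.22 and 0.36 without it). Of 10 genes that open or form epoxides other than *Ephx1* and *Ephx2*, 1 rose, *Mest* (0.77, adjusted p = 0.0363), an imprinted gene of the same hydrolase fold. The *Mest* call was lost without any of mice 2 to 5 or 7 to 9, without the block and with no filter on low counts. Of 13 esterases tested, 1 rose, *Esd*, which cleaves S-formylglutathione (88.2 to 390 CPM; 2.10, adjusted p = 2.42e-05).

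Around *Por*, 3 of 19 diflavin reductases, electron acceptors and flavin-supply genes rose, although *Por* was not called. These were *Hmox1*, the inducible heme oxygenase (31.03 to 863 mean CPM, log2 fold change 4.50, adjusted p = 5.50e-05), *Cyb5a*, cytochrome b5 (259 to 1020 CPM; 2.02, adjusted p = 0.000937) and *Pgrmc1*, a heme protein that binds P450 enzymes (328 to 1372 CPM; 1.94, adjusted p = 0.000277). With the macrophage covariate, the log2 fold change of *Hmox1* was 4.56 (SE 0.99, edgeR, adjusted p = 0.169). With the rod and cone covariate it was 3.66 (SE 0.83, edgeR, adjusted p = 0.167), against 4.50 (SE 0.41) without a covariate. Which cells gave the *Hmox1* difference was not tested.

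**Figure D4:**
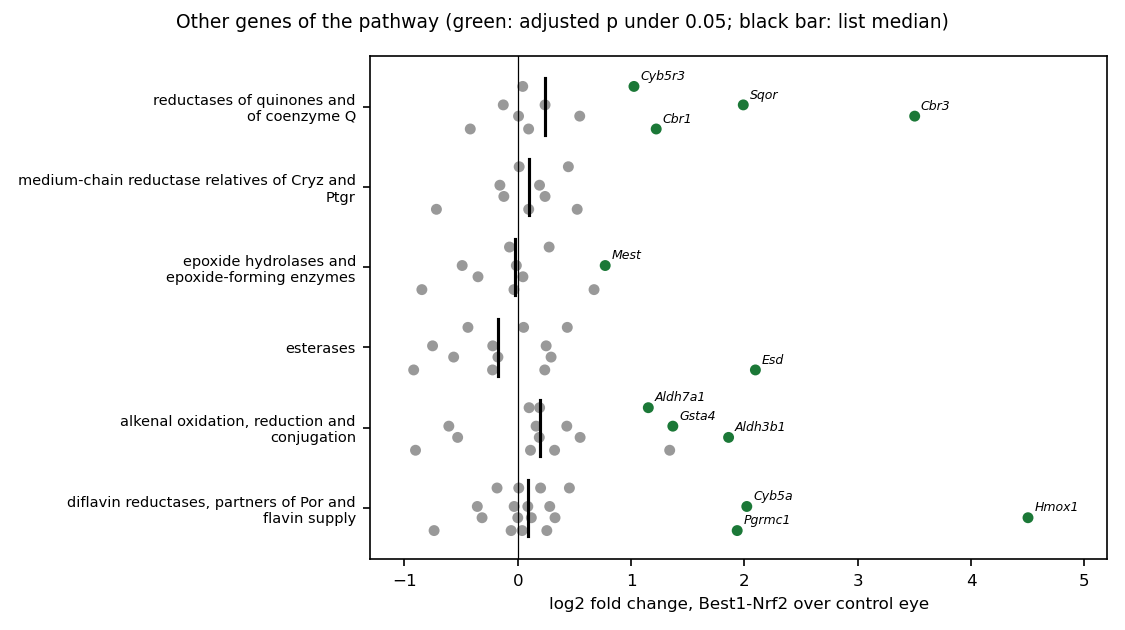
Log2 fold change (Best1-Nrf2 minus control) of the 77 pathway genes tested, by list, with the genes called higher in green and named and the median of each list as a black bar. The 12 named genes lie between 0.77 and 4.50, and no gene is marked lower.

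For each detoxification gene, the genes tested whose log2 CPM followed it most closely over the 18 libraries were found, a description in which the difference between groups takes part. *Nqo1* was closest to *Maoa* (r = 0.981), *Sqor* (0.980) and *Lix1* (0.980), and *Ephx1* to *Hfe* (0.986), *Pgrmc1* (0.983) and *Maoa* (0.980). *Ptgr1* was closest to *Cd7* (0.975) and *Tubb4b* (0.971), and *Ephx2* to *Cyb5r3* (0.963), *Serpina3m* (0.956) and *Fam181b* (0.9504). The genes that were not called had other neighbours, with *Por* closest to *Atl2* (0.953), *Ptgr2* to *Slc35a5* (0.952), *Cryz* to *Aldh9a1* (0.960), *Ces1d* to *Slc35a1* (0.949) and *Nqo2* to *Gm28036* (0.894).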

How the data were processed

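Amplified poly(A) RNA from 18 eyes of 9 *rd1* mice was sequenced. Per the study's methods, the authors used STAR with mm10 and Ensembl annotation and featureCounts for alignment and counting, and took Salmon estimates in parallel through tximport in DESeq2 (Salmon 0.8.1 and FastQC per the submitters' processing notes). The deposited table of the authors holds estimated counts (expected counts) per Ensembl gene, whole and unscaled, and the table itself does not say which counter made it. Symbols were found for 47224 of 47729 gene IDs, and coordinates are from GENCODE on GRCm38. The libraries were sequenced in separate runs that the labels do not assign, so that run could not be a term. Molecular identifiers are not described, and PCR copies are not independent molecules.

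In R 4.3.3, genes were filtered by filterByExpr (18958 kept, with 99.9% of counts), scaled by TMM and tested with edgeR 4.0.16 (quasi-likelihood F test, mouse as a block, Benjamini-Hochberg threshold of 0.05). Log2 CPM used a prior count of 2. SEs and 95% CIs came from the fit. The block rests on the individual numbers in the labels, each shared by a Best1-Nrf2 and a control library. They were read as the mouse because the study's methods state paired eyes. The correlation between eyes of a mouse after removal of group means had a median of -0.00095 (range, -0.37 to 0.64), and 3 of 9 were over 0.1. Of 72 pairs of libraries within groups, none was close enough to be a duplicate.

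The genes and lists were chosen with earlier results of these data known. Text names were given to the 9 genes, *Nfe2l2*, called genes of each pathway list (up to 4, or all where 5 or fewer), the 3 most abundant RPE markers and the closest genes by Pearson's r (1 of which is not reported here). Genes overlapping these loci (*Serpinb6a*, *Gm47484*) and *Rdh11* were named after values were seen. Alternatives were no block, other scalings, DESeq2 1.42.0, voom (limma 3.58.1), other filters (none, or at least 10 counts in every library), marker covariates and each mouse left out. The run without mice 6 and 8 was added after the data were seen. Scripts were tested on simulated data.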

Additional observations from a re-analysis of the deposited data

Results flagged for a closer look

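Each group's 9 eyes were screened for a single eye far from the rest, by Dixon's test at the 95% level. Chance alone marks about 1 in 20 groups, and 5 of the 36 groups screened were marked. For *Por*, the Best1-Nrf2 eye of mouse 6 was the lowest (5.88 log2 CPM, with the next at 6.98). For *Cryz*, the control eye of mouse 8 was the lowest (4.49 log2 CPM, with the next at 5.51). The same control eye had the highest *Nfe2l2* level of its group (7.06 log2 CPM, with the next at 6.60) and the lowest mean of RPE markers (7.77 log2 CPM, with the next at 8.86). For cone markers, mouse 6 had the highest mean of the Best1-Nrf2 eyes (4.53 log2 CPM, with the next at 2.70). Without mice 6 and 8, a choice made after seeing the data, the log2 fold changes were 2.00 for *Nqo1*, 4.41 for *Ptgr1*, 1.54 for *Ephx1* and 0.99 for *Ephx2*, and all 4 were called.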

How the results depend on the processing

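*Nqo1*, *Ptgr1* and *Ephx1* were called higher under every alternative run except the photoreceptor covariate, with log2 fold changes of 2.33, 2.57 and 1.15 (adjusted p = 0.115, 0.198 and 0.222), and the macrophage covariate, with 2.16, 5.03 and 1.5 (adjusted p = 0.194, 0.0638 and 0.468). *Nfe2l2* itself was not called with either (1.77 and 2.90; adjusted p = 0.192 and 0.0543). Genes called higher and lower numbered 10 and 0 (10 in all, with 1644 lower at an unadjusted p under 0.05 in edgeR) with the photoreceptor covariate, 21 and 1 (22 in all) with the macrophage covariate, and 257 and 29 (286 in all) with the RPE covariate. Of the 9 genes, 0 were then called with the photoreceptor or macrophage covariate, and 1 pathway gene, *Cbr3*, was called with either. DESeq2 called 940 higher and 538 lower (1478 in all) and voom 924 and 502 (1426 in all), each with 1 pathway gene lower. Without the replicate block, 742 genes were called, of which 647 were called with it, and the same 4 detoxification genes. Without mice 6 and 8, 366 genes were lower, 1 of them a pathway gene. Leaving out each mouse gave 540 to 1046 genes called, 116 to 320 of them lower (116, 128, 129, 124 and 130 without mice 1, 3, 5, 7 and 9), 3 to 4 of the 9 genes higher, 0 to 1 pathway genes lower (*Rdh11* without mouse 8), and 3 to 5 genes correlated with *Nfe2l2* (5 without mouse 8, with *Ptgr1* and *Ptgr2* added). Signs turned for genes that were not called: *Ptgr2* was -0.067 and *Ces1d* -1.75 with the photoreceptor covariate, *Ces1d* was -0.022 with the RPE covariate, and *Ptgr2*, *Ces1d* and *Cryz* were -0.69, -1.34 and -0.12 with the macrophage covariate. With a mouse left out, *Ces1d* ran from -0.18 to 0.41, *Ptgr2* from -0.057 to 0.21 and *Por* from -0.32 to 0.011. The r of *Por* with *Nfe2l2* was -0.17 without the eyes of mice 6 and 8, and with an eye left out it ran from -0.37 to 0.46, that of *Nqo2* from -0.23 to 0.17 and that of *Ces1d* from -0.51 to 0.26. The cause of these shifts was not tested. With 9 mice, changes the size of the *Ces1d* interval could not be told from 0.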
